A study of Mus musculus with 3 samples.

Results

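C1q-high macrophages of the injured mouse lung were examined as a class of cell barcodes defined by their transcripts. From the 3 deposited matrices, barcodes were kept with 500 or more detected genes and at most 15% mitochondrial UMIs (unique molecular identifiers, each standing for 1 captured transcript). A kept barcode was a member when Tyrobp plus Fcer1g, 2 signalling adaptors of myeloid cells, came to at least 5 UMIs and C1qa plus C1qb to at least 0.1% of its UMIs. Members also had fewer than 3 UMIs of Cd163, Ccl8 and Cxcl13 together and less than 4% of UMIs from the surfactant gene Sftpc. The rule found 590 members among 10457 kept barcodes. Of these, 578 came from the AT2-Tracer library, 10 from the BASC-Tracer and 2 from the Club-Tracer library. Because measured values chose the members, the levels below are a description, and no test was made on them.

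The mice carried Scgb1a1-CreER, Sftpc-DreER and the R26-TLR reporter, so that 1 recombinase was driven by the promoter of an airway club cell gene and the other by that of an alveolar type 2 (AT2) cell gene. All libraries came from whole lung at 4 weeks after bleomycin, a drug that injures the alveoli, and no uninjured library was analysed here. Sorting for the red reporter tdTomato gave the Club-Tracer library, for green ZsGreen the AT2-Tracer library, and for both the BASC-Tracer library, named for bronchioalveolar stem cells. Each sort was represented by 1 library, and the number of mice behind a library was not given in the sources used here. Differences therefore have no replicate check, and all intervals below are 95% intervals for counting error only, which leave out variation between cells and animals. The labels call the sorted cells lung epithelial cells, which goes against the members described here.

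As background, C1q is the recognition subunit of the classical complement pathway, assembled from the products of C1qa, C1qb and C1qc, and tissue macrophages are its main source. Apoe encodes apolipoprotein E, which carries cholesterol out of lipid-laden macrophages, and Mmp12 encodes macrophage elastase, a protease that degrades elastin. In the lung, resident alveolar macrophages lie in the airspaces and recycle surfactant, interstitial macrophages lie in the tissue around vessels and airways, and monocytes recruited after bleomycin give rise to further macrophages that have been linked to fibrosis.

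The 3 C1q genes lie side by side on the reverse strand of chromosome 4 (build mm10, also named GRCm38). C1qb (ENSMUSG00000036905) runs from 136880129 to 136886187, C1qc (ENSMUSG00000036896) from 136889804 to 136893065 and C1qa (ENSMUSG00000036887) from 136895917 to 136898803. Apoe (ENSMUSG00000002985) lies on the reverse strand of chromosome 7, 19696109 to 19699188, and Mmp12 (ENSMUSG00000049723) on the forward strand of chromosome 9, 7344381 to 7369499. All 5 are protein-coding.

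The promoter windows below are shown because C1qb and C1qc stood together in nearly every member while Mmp12 was present in a minority of them. Each is the RefSeq sequence of build GRCm38.p6, read 5′ to 3′ on the gene's strand. It runs from 250 bases before to 50 bases after the start annotated by RefSeq. Starts named with the windows are RefSeq starts, which can differ from the gene coordinates above. Those of C1qc and Mmp12 lie inside the genes as given there, and that of C1qb lies outside its gene. The windows are chr4:136886151-136886450 for C1qb, chr4:136892865-136893164 for C1qc, chr9:7344147-7344446 for Mmp12 and chr7:19699139-19699438 for Apoe. Capitals mark 2 motifs searched on both strands: AGGAAGT, a core bound by the ETS family factor PU.1 and printed as ACTTCCT where it lies on the opposite strand, and TGCTGA, the core of the site bound by MAF factors.
C1qb: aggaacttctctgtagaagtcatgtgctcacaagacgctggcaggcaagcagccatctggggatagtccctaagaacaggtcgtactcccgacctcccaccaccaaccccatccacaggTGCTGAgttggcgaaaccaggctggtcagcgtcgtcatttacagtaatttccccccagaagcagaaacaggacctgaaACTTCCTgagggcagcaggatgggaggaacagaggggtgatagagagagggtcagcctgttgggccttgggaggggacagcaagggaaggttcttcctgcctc
C1qc: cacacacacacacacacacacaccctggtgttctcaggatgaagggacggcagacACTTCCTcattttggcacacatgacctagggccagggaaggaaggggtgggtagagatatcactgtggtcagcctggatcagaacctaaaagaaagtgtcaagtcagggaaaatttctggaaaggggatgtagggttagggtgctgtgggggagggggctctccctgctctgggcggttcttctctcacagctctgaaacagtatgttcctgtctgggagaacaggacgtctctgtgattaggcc
Mmp12: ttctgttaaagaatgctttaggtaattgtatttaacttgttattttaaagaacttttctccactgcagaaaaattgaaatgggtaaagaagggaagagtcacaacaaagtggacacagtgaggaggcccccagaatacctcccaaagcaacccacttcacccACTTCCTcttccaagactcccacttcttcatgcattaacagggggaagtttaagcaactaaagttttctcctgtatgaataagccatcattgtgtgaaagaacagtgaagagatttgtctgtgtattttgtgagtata
Apoe: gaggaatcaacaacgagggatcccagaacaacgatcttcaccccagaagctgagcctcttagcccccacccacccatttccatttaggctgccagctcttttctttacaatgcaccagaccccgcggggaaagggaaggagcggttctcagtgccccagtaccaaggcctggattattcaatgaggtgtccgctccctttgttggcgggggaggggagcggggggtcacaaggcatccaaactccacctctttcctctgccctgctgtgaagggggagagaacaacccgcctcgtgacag
In C1qb the ETS core began 53 bases before the start and the MAF core 131 bases before it. The ETS core began 195 bases before the start of C1qc and 88 bases before that of Mmp12, and the Apoe window held neither motif. Over 32851 RefSeq promoter windows of the same length, 9.35% held AGGAAGT and 19.5% held TGCTGA. The matches describe letters and were not tested as binding sites.

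The deposited matrices held 5304 (Club-Tracer), 2439 (BASC-Tracer) and 8884 (AT2-Tracer) barcodes, and those kept had medians of 15406, 15221.5 and 9682 UMIs. Between pairs of libraries 6, 23 and 14 kept barcode sequences were shared, of which 5 involved a member on 1 side and none a member on both. Kept barcodes with Tyrobp plus Fcer1g at 5 or more UMIs and Sftpc under 4%, called myeloid here, made up 1.25%, 7.56% and 30.2% of the 3 libraries.

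C1q-high macrophages were largely cells of the green sort. They made up 9.87% of kept AT2-Tracer barcodes (9.11 to 10.7), 0.713% of BASC-Tracer barcodes (0.343 to 1.31) and 0.0626% of Club-Tracer barcodes (0.00758 to 0.226). Among myeloid barcodes alone they were 578 of 1767 (32.7%), 10 of 106 (9.43%, 4.62 to 16.7) and 2 of 40 (5.00%). A neighbouring class with 3 or more UMIs of Cd163, Ccl8 and Cxcl13 and the same C1q limit, called the Cd163 set below, held 286 AT2-Tracer barcodes and 79 of the 106 BASC-Tracer myeloid barcodes. The class used for comparison, with Chil3 at 0.1% of UMIs or more and C1q under 0.1%, held 806 AT2-Tracer, 8 BASC-Tracer and 8 Club-Tracer barcodes. Chil3 encodes a secreted chitinase-like protein made in quantity by alveolar macrophages. These shares depend on the sort gates, and no share of cells in the lung can be read from them.

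**Figure D1:**
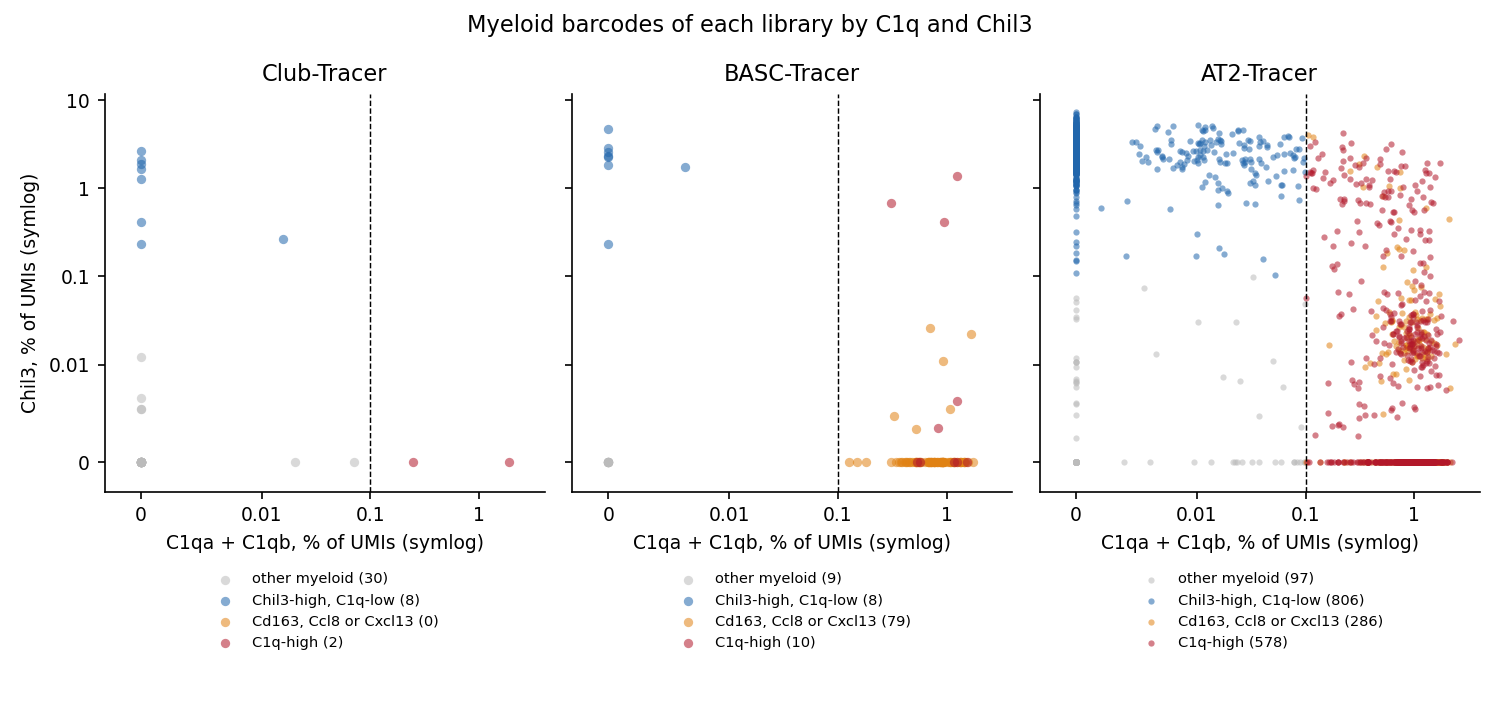
Each point is 1 myeloid barcode, with C1qa plus C1qb on the horizontal axis and Chil3 on the vertical axis, both as a percentage of its UMIs on symlog scales (linear near 0, logarithmic above). In the AT2-Tracer panel the 806 Chil3-high barcodes lie left of the dashed 0.1% line at high Chil3, while the 578 C1q-high barcodes lie right of it and spread from Chil3 at 0 up to the level of the Chil3-high class.

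Levels differed across the C1q limit without a gap. The 36 AT2-Tracer members with C1qa plus C1qb between 0.1% and 0.2% of UMIs had Apoe at 7339 CPM (the share of the class's summed UMIs, scaled to 1e+06), Mmp12 at 1160 CPM and Chil3 at 6445 CPM. The 33 myeloid barcodes just outside, at 0.05% to 0.1%, had Apoe at 5322, Mmp12 at 240.5 and Chil3 at 12985 CPM. At the other limit, the 99 members with 1 or 2 UMIs of the Cd163 set had Apoe at 46179 and Mmp12 at 352.0 CPM, against 47228 and 26.74 CPM in the 33 barcodes just outside with 3 or 4. The 479 members with none had 37217 and 739.4 CPM.

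The members carried leukocyte and macrophage transcripts, which goes against the label of epithelial cells. In AT2-Tracer members the common leukocyte gene Ptprc stood at 309 CPM and the adaptor Tyrobp at 2903 CPM, against 438 and 3063 CPM in the Chil3-high class. Every AT2-Tracer member had UMIs of Lyz2, the macrophage lysozyme, but the sorted epithelium carried this transcript too. The sorted epithelium was represented by 1805 AT2-Tracer barcodes with 3 or more UMIs of Epcam, an adhesion molecule of epithelial cells, and no UMI of Tyrobp or Fcer1g. These had C1qa at 2.26 CPM and Sftpc at 54980 CPM, against 4163 and 1185 CPM in members (Sftpc 795 CPM without members with 3 or more Epcam UMIs). The rule used both genes and the adaptors, so these levels only restate it. Lyz2, which the rule left free, stood at 23061 CPM in members and 6013 CPM in these epithelial barcodes. Of 21 pan-macrophage genes, all were at 50 CPM or more in members or in the Chil3-high class. Their summed level was 42182 CPM in members and 35378 CPM in the Chil3-high class. Markers of other blood cells were low: the 7 erythroid genes were at 0, 7 of 10 mast cell and basophil genes were at 0, and 11 of 19 T and NK cell genes were at 0 with a sum of 93.8 CPM. Of the 15 neutrophil genes, S100a9, Retnlg, Ly6g, Ngp and Camp were at 0, and the sum was 362 CPM against 2469 CPM in the Chil3-high class. Others of that list were not absent: S100a8 had UMIs in 188 members (32.5%). Wfdc21 had UMIs in 9.86% of members and 92.6% of Chil3-high barcodes, so the sums do not measure neutrophil RNA alone. Dendritic cell genes summed to 5483 CPM in members, against 1794 CPM, but only 4 of 19 reached 50 CPM in either class. That list shares Itgax with the pan-macrophage list and Cst3 with the matrix protease and inhibitor list. Its sum therefore does not measure dendritic cell RNA alone.

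Epithelial transcripts were not confined to a few members. Sftpc had UMIs in 559 AT2-Tracer members (96.7%), the keratin Krt8 in 78 (13.5%) and Epcam in 51 (8.82%). Of the 578 AT2-Tracer members, 21 (3.63%) had 3 or more Epcam UMIs, 14 were marked as doublets by Scrublet, and 9 were both. The 21 had a median of 16972 UMIs against 8060 in the other 557, with Ager, a receptor of flat alveolar type 1 (AT1) cells, at 2126 against 95.4 CPM. Their Apoe level was 9774 against 40952 CPM and their C1qa level 1658 against 4362 CPM. They were kept, and values without them are given beside the main results for Mmp12, H2-Aa, Sftpc, the reporter, the AT1 genes and the proliferating members.

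C1q and Apoe transcripts were found in nearly all members, and Mmp12 in a minority. To compare shares of cells at equal depth, each barcode was thinned to 1500 UMIs, which left out 4 of the 578 members. After thinning, C1qb was seen in 97.2% of members, Apoe in 97.0%, C1qa in 93.9% and C1qc in 92.5%. Before thinning the shares were 100%, 99.1%, 99.8% and 99.1%. The same transcripts were seen at 1500 UMIs in 0.388%, 9.76%, 0.222% and 0.333% of Epcam-positive barcodes. Apoe stood at 69.7 CPM and C1qa at 2.26 CPM in those barcodes, and the source of this RNA was not tested. Mmp12 was seen in 18.8% of thinned members (15.7 to 22.3) and in 32.9% at full depth. It was seen in 1.77% of thinned Chil3-high barcodes, 1.44% of the Cd163 set and none of the Epcam-positive barcodes.

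**Figure D2:**
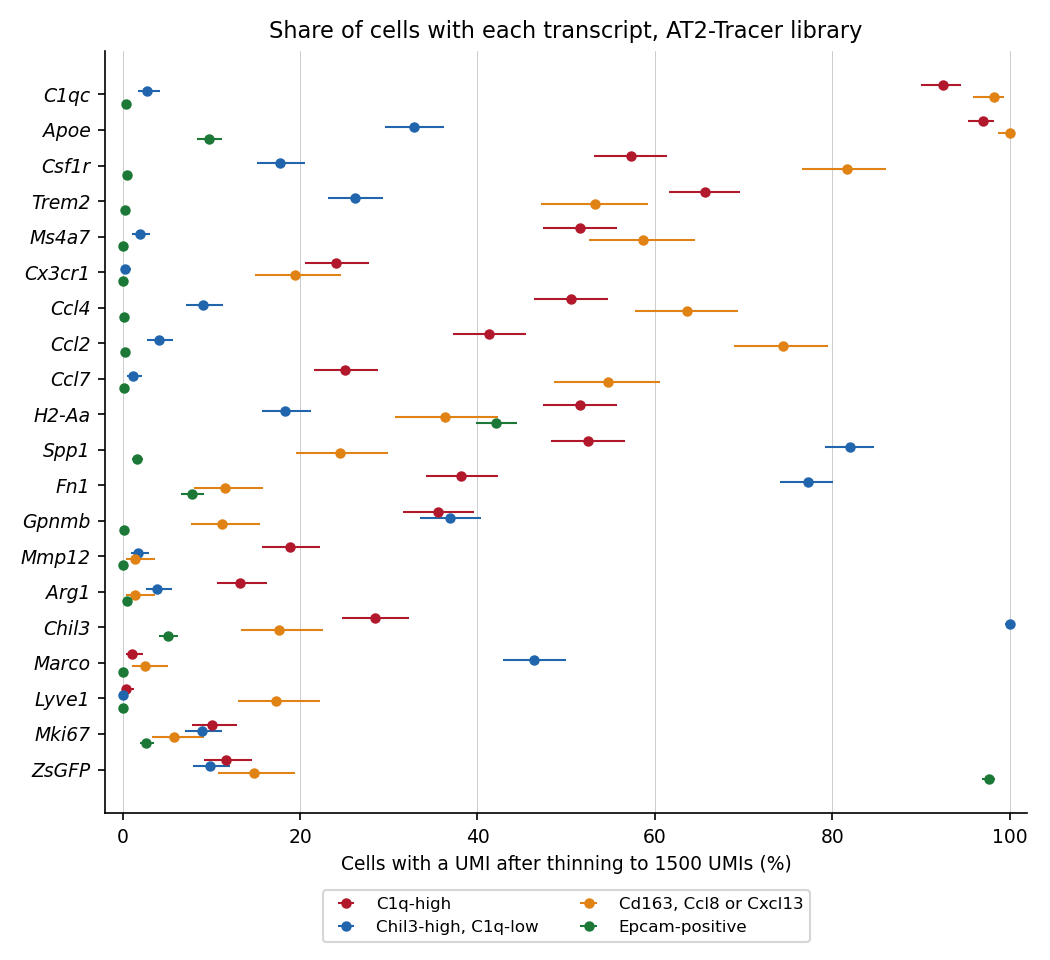
Share of AT2-Tracer barcodes with at least 1 UMI of each transcript after thinning to 1500 UMIs, with exact Clopper-Pearson 95% intervals for the C1q-high class (red), the Chil3-high class (blue), the Cd163 set (orange) and Epcam-positive barcodes (green). Mmp12 and Arg1 are highest in the C1q-high class, at 18.8% and 13.2%, while C1qc and Apoe are shared with the Cd163 set and Spp1 and Fn1 are seen most often in the Chil3-high class.

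Across AT2-Tracer members, Apoe ranged from 0 to 16.5% of a cell's UMIs with a median of 3.96%, and 5 members had none. C1qa ranged from 0 to 1.42% with a median of 0.453%, and C1qb from 0.0264% to 1.24% with a median of 0.420%. Mmp12 was unevenly spread. Its median was 0, its 90th percentile 0.133% and its highest value 1.61%, and 388 of 578 members had no UMI of it. C1qa and C1qb were required by the rule. Of the markers it left free, Apoe and C1qc were thus present in nearly every member and Mmp12 only in some of them.

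The marker levels were compared across the libraries as a description, because the BASC-Tracer and Club-Tracer libraries held so few members. Summed Apoe was 38657 CPM (38496 to 38818) in the 578 AT2-Tracer members, 64704 CPM (63439 to 65989) in the 10 BASC-Tracer members and 9265 CPM (6807 to 12320) in the 2 Club-Tracer members. In the Club-Tracer library the 2 cells had Apoe at 0.0246% and 4.60% of their UMIs. C1qa stood at 4163, 5239 and 1774 CPM in the same order, and C1qb at 3969, 5304 and 3942 CPM. Mmp12 stood at 677 CPM (656 to 699), 280 CPM (202 to 377) and 789 CPM (215 to 2019, from 4 UMIs). Among the 10 BASC-Tracer members, 6 had no Mmp12 UMI and 5 had no Chil3 UMI, and 1 had no Apoe UMI. Their Spp1 level was 3143 CPM against 4627 CPM in AT2-Tracer members, and their Gpnmb level 2935 against 916 CPM. The airway transcript Scgb1a1 stood at 540 CPM in BASC-Tracer and 7096 CPM in Club-Tracer members, and its source in them was not tested. The 2 Club-Tracer members had no UMI of Ptprc, Spp1, Ms4a7 or Chil3 and had Cd74, the invariant chain of MHC class II, at 30160 CPM. With 50 or fewer UMIs behind most of their values, no further comparison was made from them.

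The comparison with Chil3-high, C1q-low macrophages asked which transcripts set the C1q-high cells apart within 1 library, from 578 against 806 AT2-Tracer barcodes. Genes at 50 CPM or more in either class were counted as apart when log2((CPM + 5)/(CPM + 5)) reached a factor of 2; this marks a size and is no test. Of 3067 such genes, 259 (8.44%) were higher in the C1q-high class and 244 (7.96%) lower, and the median log2 ratio over all of them was -0.08. Because both classes were chosen on C1qa, C1qb and the myeloid adaptors, and the comparison class on Chil3, these genes and those that vary with them had to differ. A gene that reached the limit only in 1 class was also higher there by construction, so the counts and medians of lists describe the classes and support nothing further.

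Among the complement genes, 6 of 12 were higher and 3 lower, with a median log2 ratio of 1.02. C1qa and C1qb, which the rule used, are among the higher genes. Of the 12, 6 reached the limit only in members and 2 only in the Chil3-high class, so their direction was set by the limit. C1qc, which the rule did not use but which shares the locus of the genes it did use, stood at 3147 against 15.9 CPM, a ratio of 198 (167 to 237). C3ar1, the receptor for the C3a fragment, stood at 324 against 5.74 CPM, 56.5-fold higher. The integrin chain Itgam, part of complement receptor 3, stood at 141 against 13.98 CPM. Components of the alternative pathway ran the opposite way. Cfb, its factor B, stood at 32.9 against 215 CPM, and C3, the central component, at 22.4 against 74.1 CPM. C4b, of the classical pathway downstream of C1q, was lower as well at 51.1 against 160 CPM. Itgax, a chain of complement receptor 4, was not apart at 203 against 254 CPM.

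Lipid genes were split. Of 22 at the limit, 8 were higher and 6 lower, with a median of 0.03. Apoe stood at 38657 against 1200 CPM, 32.2-fold higher (31.6 to 32.9), and was seen in 32.9% of thinned Chil3-high barcodes. Apoc4, a smaller apolipoprotein encoded in the same gene cluster as Apoe, stood at 105 against 4.54 CPM, whereas Apoc1, of that cluster too, stood at 26.6 against 165 CPM. Trem2, a lipid-sensing receptor, stood at 945 against 215 CPM, 4.40-fold higher. Among the 6 lower genes were Lpl, lipoprotein lipase, at 409 against 1579 CPM, the fatty acid binding protein Fabp4 at 158 against 645 CPM, and the cholesterol exporter Abcg1 at 95.9 against 414 CPM. Pparg, the nuclear receptor on which alveolar macrophage identity depends, stood at 26.8 against 96.8 CPM.

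Of 9 matrix protease and inhibitor genes, 6 were higher and none lower, with a median of 1.85. Plau, Adam8 and Mmp14 reached the limit only in members, so the direction of these 3 was set by the limit. Mmp12 stood at 677 against 52.1 CPM, 13-fold higher (11.8 to 14.4). In the Chil3-high class 288 of the 436 Mmp12 UMIs (66.1%) came from 1 cell, and only 31 of 806 cells had any. Without barcodes with 3 or more Epcam UMIs the levels were 689 and 15.3 CPM, a log2 ratio of 5.10 in place of 3.58. Plau, the urokinase plasminogen activator, stood at 167 against 3.94 CPM, 42.2-fold higher (29.9 to 61.7). The membrane proteases Adam8 and Mmp14 stood at 157 against 9.56 CPM and 204 against 23.9 CPM. The inhibitor Timp2 stood at 590 against 177 CPM. Timp3, Plaur (the urokinase receptor) and Mmp19 were not apart, with log2 ratios of 0.63, 0.24 and 0.15.

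Transcripts often used to describe fibrosis-associated macrophages did not move as 1 group. Of 16, 6 were higher, 2 lower and 8 neither, with a median of 0.31. Gpnmb, a lysosomal glycoprotein, stood at 916 against 336 CPM, 2.72-fold higher. Arg1, the arginase of alternative activation, stood at 264 against 41.0 CPM, and the growth factor subunit Pdgfa at 63.2 against 14.7 CPM. Spp1, which encodes osteopontin, stood at 4627 against 6663 CPM and Fn1, fibronectin, at 1066 against 1696 CPM, both lower by less than the limit (log2 ratios -0.53 and -0.67). Cd9, a tetraspanin, and Ctsk, the collagen-degrading cathepsin K, were lower at 982 against 2955 CPM and 183 against 685 CPM. Both classes thus carried Spp1, and it was seen in 52.4% of thinned members and 82.1% of Chil3-high barcodes.

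The lists of alveolar and interstitial macrophage markers are given as a description, since they hold Chil3 and the C1q genes that chose the classes. Of the 21 resident alveolar macrophage genes at the limit, 11 reached it only in the Chil3-high class, so their direction was set by the limit. In all, 20 were lower in the C1q-high class and none higher, with a median of -2.83. Of the 17 interstitial genes at the limit, 11 reached it only in the C1q-high class; 15 were higher and 1 lower, with a median of 3.59. Marco, a scavenger receptor of alveolar macrophages, stood at 32.0 against 1046 CPM, 32.7-fold lower (28.2 to 38.0), and 561 of 578 members had no UMI of it. Car4, carbonic anhydrase IV, stood at 29.2 against 679 CPM, Ear1 and Ear2, ribonucleases of the eosinophil-associated family, at 5.78 against 247 and 142 against 1459 CPM, and Siglecf, the lectin used to sort alveolar macrophages, at 2.98 against 51.7 CPM. Reads of Ear1, Ear2 and Ear6 may be split or shared between these near-identical copies, so their values are uncertain. Itgax, which encodes CD11c, was the 1 alveolar gene not apart, at 203 against 254 CPM. On the interstitial side Cx3cr1, the fractalkine receptor, stood at 178 against 1.67 CPM, 106.5-fold higher (63.2 to 196). Stab1, a scavenger receptor, stood at 146 against 0.956 CPM, and the membrane proteins Ms4a4a and Ms4a7 at 260 against 2.15 and 557 against 13.6 CPM. Mrc1, the mannose receptor, was the interstitial gene that was lower, at 388 against 877 CPM.

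Of 15 chemokines 10 were higher and 1 lower, with a median of 2.22, and 8 of the 15 reached the limit only in the C1q-high class. Monocyte attractants stood furthest apart: Ccl12 at 177 against 0.956 CPM, Ccl7 at 518 against 9.20 CPM, 56.2-fold higher (44.9 to 71.5), and Ccl2 at 754 against 48.3 CPM. Ccl3 and Ccl4, attractants of monocytes and T cells, stood at 789 against 166 CPM and 1957 against 131 CPM. Ccl6 was the 1 lower gene, at 1412 against 3643 CPM. Cxcl2, a neutrophil attractant, was not apart at 8470 against 5626 CPM. Immediate early and heat shock genes, which respond within minutes to stimuli and also to warm tissue digestion, were higher in 9 of 16 and lower in none, with a median of 1.27. Among them Jun stood at 874 against 207 CPM, Egr1 at 531 against 135 CPM and Hspa1a at 67.9 against 7.53 CPM. Both classes came from the same digested suspension, and the part of that response in the chemokine levels was not tested.

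Antigen presentation genes were higher in 5 of 12 and lower in none, with a median of 0.58. They were 4 genes of MHC class II and the costimulatory ligand Cd86, at 149 against 30.2 CPM. H2-Eb1 stood at 965 against 63.5 CPM, H2-Ab1 at 1923 against 236 CPM, H2-Aa at 3147 against 325 CPM and Cd74 at 7539 against 866 CPM. Without members with 3 or more Epcam UMIs, H2-Aa stood at 2855 CPM in members. It was seen in 51.6% of thinned members and in 18.3% of thinned Chil3-high barcodes. It was also seen in 42.1% of Epcam-positive barcodes, and the part of epithelial RNA in the members' level was not tested.

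Transcription factors and receptors of the macrophage lineage differed in the same cells. Of 24 transcription factor genes, 7 were higher and 3 lower, with a median of 0.44. Maf, a bZIP factor of mature tissue macrophages, stood at 88.9 against 2.27 CPM, 39.2-fold higher (24.8 to 65.6). Bhlhe41, a repressor expressed by alveolar macrophages, was lower at 26.3 against 63.5 CPM. Csf1r, the receptor for macrophage colony-stimulating factor, stood at 537 against 132 CPM, whereas Csf2rb, the common chain of the GM-CSF receptor, stood at 182 against 410 CPM. Gas6, a bridging ligand for the engulfment of dead cells, stood at 71.4 against 10.6 CPM. The inflammasome cytokine Il18 stood at 53.2 against 439 CPM. Il1b was not apart at 2426 against 1915 CPM.

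Other transcripts at the ends of the ranking included Vcam1, a cell adhesion molecule, at 112 against 1.20 CPM and Aif1, a calcium-binding protein of macrophages, at 138 against 2.99 CPM. At the lower end were Wfdc21 at 62.5 against 1189 CPM, Plet1 at 75.1 against 1385 CPM and the growth factor Ereg at 14.7 against 313 CPM. The formyl peptide receptors Fpr1 and Fpr2 stood at 9.98 against 177 CPM and 4.55 against 116 CPM. Inhba, the activin A subunit, stood at 7.53 against 113 CPM. Lysosomal genes differed less: 5 of 21 were higher and 2 lower, with a median of 0.48, and the cathepsin Ctsd was level at 4808 against 4900 CPM. The protease Lgmn was higher at 1423 against 325 CPM and Ctsb at 3725 against 1114 CPM.

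**Figure D3:**
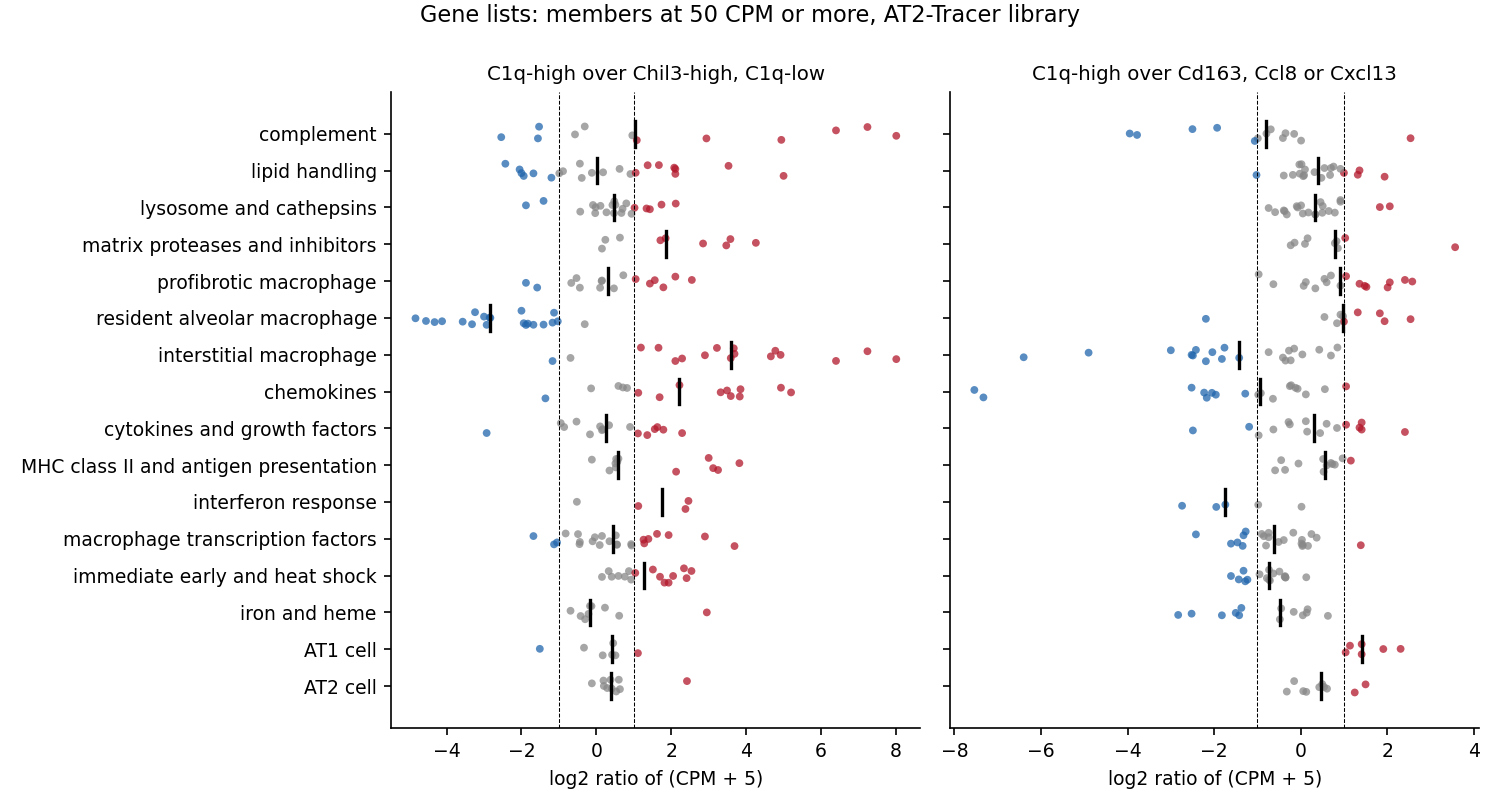
Each point is a gene of the named list at 50 CPM or more in either class, placed at the log2 ratio of (CPM + 5) in the AT2-Tracer library. The C1q-high class is set over the Chil3-high class on the left and over the Cd163 set on the right, black bars mark list medians, dashed lines mark a factor of 2, and red and blue points lie beyond it. Resident alveolar macrophage genes have a median of -2.83 on the left and 0.99 on the right, and interstitial macrophage genes 3.59 and -1.42.

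The Cd163 set was cut with the same C1q limit as the members. It differs from them by the rule in Cd163, Ccl8 and Cxcl13, which stood at 6.30 against 950, 14.7 against 3673 and 2.28 against 1163 CPM in the 578 members and 286 barcodes of the set. Of 3082 genes at the limit, 105 (3.41%) were higher in members and 174 (5.65%) lower, with a median log2 ratio of -0.06. Apoe was level at 38657 against 36592 CPM, and C1qa, C1qb and C1qc stood at 4163 against 5307, 3969 against 4396 and 3147 against 4173 CPM. The set was shallower, with a median of 5757.5 UMIs against 8286.5 in members.

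Mmp12 stood at 677 against 52.3 CPM, 12.96-fold higher in members (10.6 to 16.0), and 63 of the 97 Mmp12 UMIs of the Cd163 set came from 1 cell. This distance was not seen in the BASC-Tracer library. There Mmp12 stood at 279.9 CPM (202.5 to 377.0) in the 10 members and 215.2 CPM (185.5 to 248.4) in the 79 barcodes of the set. Of 17 fibrosis-associated genes 8 were higher and none lower, with a median of 0.92. Spp1 stood at 4627 against 866 CPM, 5.35-fold higher (5.08 to 5.63), Gpnmb at 916 against 217 CPM and Arg1 at 264 against 39.9 CPM. Fn1 stood at 1066 against 367 CPM and Cd9 at 982 against 240 CPM. Lgals3, which encodes galectin-3, stood at 3405 against 1218 CPM. The insulin-like growth factor Igf1 was not apart, at 203 against 316 CPM. Spp1 was thus higher in members than in the Cd163 set and lower, within the limit, than in the Chil3-high class.

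Transcripts of alveolar macrophages were partly higher in members than in the Cd163 set, in 5 of 10 genes with 1 lower and a median of 0.99. Itgax stood at 203 against 30.7 CPM, Lpl at 409 against 103 CPM and Atp6v0d2, a subunit of the lysosomal proton pump, at 261 against 70.0 CPM. Chil3 was 1.98-fold higher at 2283 against 1151 CPM, within the limit on the log2 scale with its pseudocount. Among lipid genes 3 of 20 were higher and 1 lower, with a median of 0.40, and Fabp5 stood at 1175 against 455 CPM. The cytokine Il1b stood at 2426 against 908 CPM and the calcium-binding proteins S100a4 and S100a6 at 584 against 107 and 1694 against 418 CPM. Il7r, the interleukin 7 receptor chain, stood at 81.6 against 10.8 CPM and Mfge8, a bridging protein for apoptotic cells, at 158 against 35.01 CPM.

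Genes of perivascular and other resident interstitial macrophages were lower in members. None of 21 interstitial genes was higher and 11 were lower, with a median of -1.42, the rule's own Cd163 among them. Lyve1, the hyaluronan receptor, stood at 2.28 against 213 CPM, 93.5-fold lower (54.0 to 177). Folr2, the folate receptor beta, stood at 44.8 against 199 CPM, F13a1, coagulation factor XIII, at 144 against 1190 CPM and Mrc1 at 388 against 1790 CPM. The lectin genes Cd209f and Cd209b had 1 UMI each in members, against 65.7 and 59.8 CPM in the set. Clec10a, a lectin of macrophages and dendritic cells, stood at 12.3 against 285 CPM, and the complement receptor Vsig4 at 5.95 against 164 CPM. Ednrb, the endothelin receptor B, stood at 4.38 against 282 CPM.

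Complement and iron genes were mixed. Of 13 complement genes 5 were lower, 7 were not apart and 1, Itgax, was higher, with a median of -0.79. C4b stood at 51.1 against 763 CPM, 14.9-fold lower (13.2 to 17.0). Of 13 iron and heme genes 6 were lower and 7 were not apart, with a median of -0.48, while their summed level was 37329 against 29753 CPM. Among the lower genes was the iron exporter Slc40a1 at 6.83 against 63.0 CPM. Chemokines were lower in 8 of 18, 2 of which were used by the rule, and higher in 1, with a median of -0.95. Ccl3 stood at 789 against 1924 CPM and Pf4 at 159 against 937 CPM. Immediate early and heat shock genes were lower in 5 of 17 with a median of -0.73, and Jun stood at 874 against 2122 CPM. The members' summed levels lay between those of the other classes: chemokines at 17675 CPM, against 11472 CPM in the Chil3-high class and 32525 CPM in the Cd163 set, and immediate early and heat shock genes at 13782 CPM, against 6628 and 22314 CPM.

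Epithelial transcripts moved with the second contrast and have to be read beside it. All 6 AT1 cell genes at the limit, 4 of which reached it only in members, were higher than in the Cd163 set, with a median of 1.41 and a summed list level of 1040 against 367 CPM (978 CPM in the Chil3-high class). Without barcodes with 3 or more Epcam UMIs, 3 of 5 were higher. Not all of these 3 are named here. Pdpn and Vegfa, which macrophages express too, then had log2 ratios of 2.30 and 1.43. Ager, of the same list, had 0.62, and Cldn18, an epithelial gene outside the AT1 list, had 0.17. Several matrix genes at the lower end came from single cells. Of the Cd163 set's Mgp UMIs, 1231 of 1283 came from 1 cell, as did 290 of 295 for Sparcl1 and 833 of 845 for Eln, which encodes elastin. These values describe those cells and not the class.

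**Figure D4:**
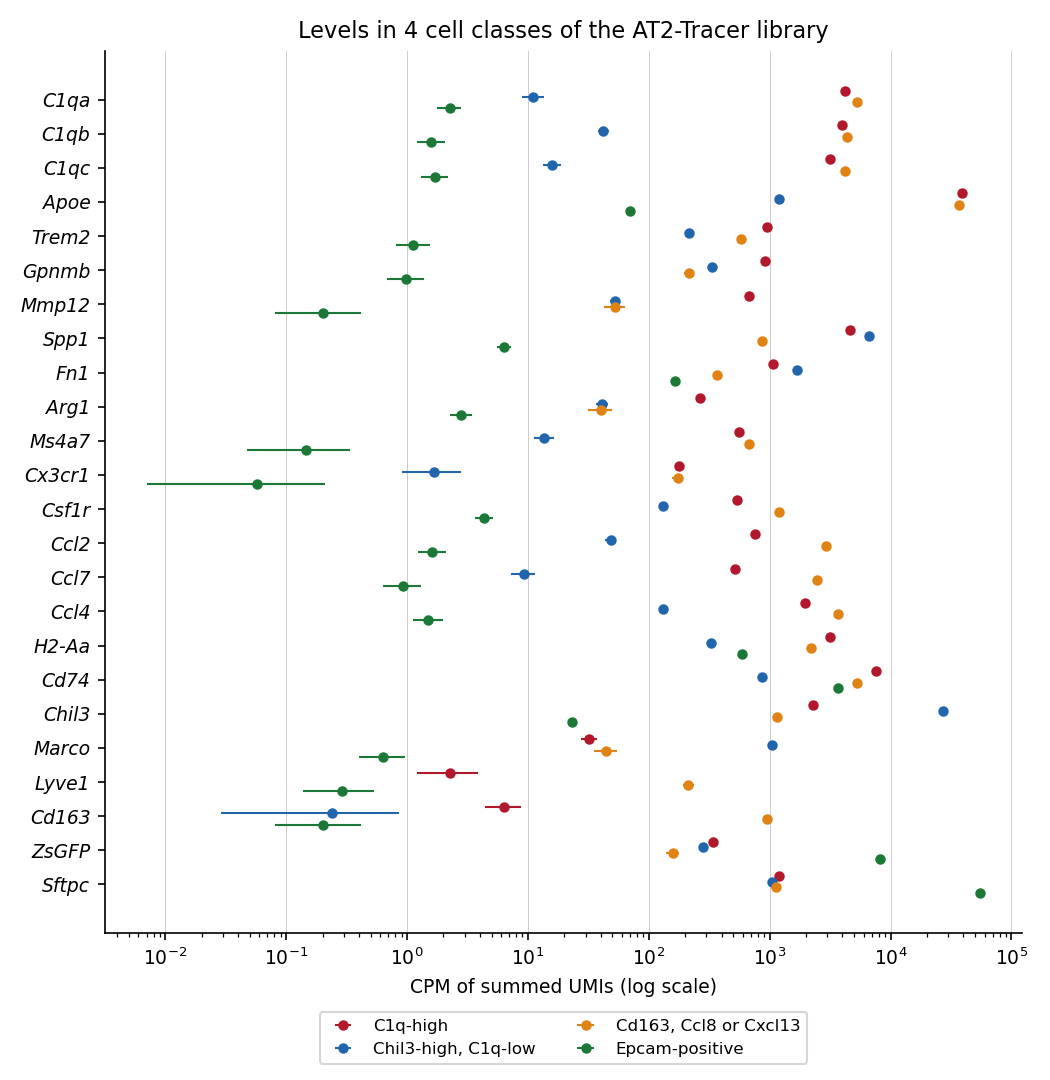
Level of each transcript in CPM of summed UMIs, on a log axis, in the C1q-high class (red), the Chil3-high class (blue), the Cd163 set (orange) and Epcam-positive barcodes (green) of the AT2-Tracer library, with exact Poisson 95% intervals; levels of 0 are not drawn. Apoe lies at 38657 and 36592 CPM in the C1q-high class and the Cd163 set and at 1200 CPM in the Chil3-high class, while Mmp12 lies at 677 CPM in the C1q-high class and at 52.1 and 52.3 CPM in the other macrophage classes.

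The members varied among themselves along lines that joined several transcripts. Rank correlations were taken over 550 AT2-Tracer members thinned to 3000 UMIs and are a description, since all cells share 1 library. C1q transcripts went with Apoe (Spearman's rho 0.53) and with Ms4a7 plus Ms4a4a (0.48). Spp1 went with Fn1 (0.58) and with Gpnmb, Fabp5 and Ctsd (0.57). MHC class II transcripts ran against the Gpnmb, Fabp5 and Ctsd sum (-0.57) and against Spp1 (-0.53). Apoe ran against S100a4 plus S100a6 (-0.64), a pair of calcium-binding proteins. The chemokines Ccl2, Ccl7 and Ccl12 went with Ccl3 and Ccl4 (0.60), and these with Jun, Fos, Egr1 and Atf3 (0.53). Mmp12 had weak values with every other set, from -0.18 with Apoe to 0.15 with S100a4 plus S100a6, and at this depth most cells had no UMI of it.

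**Figure D5:**
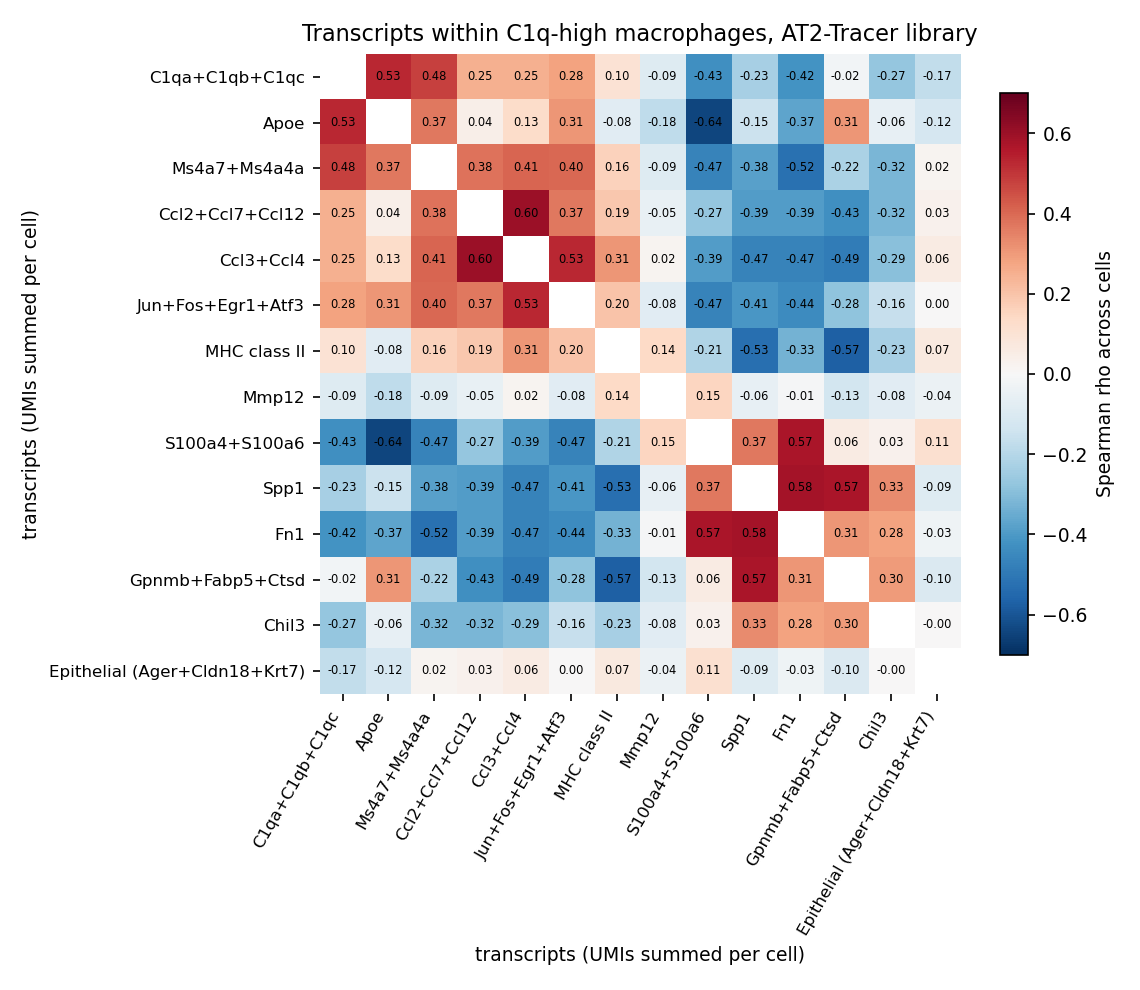
Spearman's rho between transcript sums over 550 C1q-high members of the AT2-Tracer library thinned to 3000 UMIs each, with red for positive and blue for negative values. C1q, Ms4a7 and the chemokines form a block of positive values, Spp1, Fn1 and Gpnmb form another, and the Mmp12 row lies between -0.18 and 0.15. Apoe goes with C1q (0.53) and Ms4a7 plus Ms4a4a (0.37), but has only 0.04 and 0.13 with the chemokine sums. With the Gpnmb, Fabp5 and Ctsd sum it has 0.31.

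The members with Mmp12 at 0.1% of UMIs or more numbered 69 and held 3455 of the 3868 Mmp12 UMIs. With 52 cells near the limit and an outcome-based choice, they are a range and not a type. Against the other 509 members, 38 of 2840 genes (1.34%) were higher and 51 (1.80%) lower. Il7r stood at 224 against 57.5 CPM and was seen in 42 of the 69 cells, Itgax stood at 496 against 154 CPM and was seen in 58, and Mfge8 stood at 410 against 116 CPM and was seen in 43. The chemokine Ccl17 stood at 257 against 30.5 CPM but came from 8 cells of the range. Elastin itself, Eln, stood at 342 against 1.43 CPM, and 281 of its UMIs were in 1 cell. Lower genes were C4b at 2.42 against 59.4 CPM, F13a1 at 26.6 against 164 CPM and Ccl12 at 55.6 against 197 CPM. Apoe stood at 25396 against 40903 CPM and H2-Aa at 5053 against 2824 CPM, neither past the limit. The Mmp12-bearing members were deeper, with a median of 10685 against 7940 UMIs.

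The members with Chil3 at 0.1% of UMIs or more numbered 114, with 27 cells near the limit. Against the other 464 members, 69 of 2876 genes (2.40%) were higher and 100 (3.48%) lower. Of 15 resident alveolar macrophage genes 13 were higher, Chil3 itself among them, with a median of 2.10. Marco stood at 145 against 1.56 CPM, Plet1 at 308 against 12.4 CPM, Ear2 at 569 against 27.1 CPM and Fabp4 at 494 against 66.9 CPM. Car4 stood at 135 against 0.667 CPM, with 85 of the 167 UMIs of all members in 1 cell. Of 15 chemokines 9 were lower, with a median of -2.26: Ccl12 stood at 8.25 against 222 CPM, Ccl7 at 44.6 against 645 CPM and Ccl2 at 98.2 against 930 CPM. H2-Aa stood at 953 against 3737 CPM and Mmp12 at 337 against 769 CPM. Apoe was level at 37661 against 38925 CPM, and Spp1 stood at 7469 against 3862 CPM. The depth was 10328.5 against 7936.5 UMIs at the median. Of the 114, 3 had 3 or more Epcam UMIs and 3 were marked as doublets. The part of doublets between the 2 macrophage classes was not tested.

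The Mmp12 and Chil3 ranges were counted together, with no test of their overlap. Of the 578 members 58 were in the Mmp12 range alone, 103 in the Chil3 range alone, 11 in both and 406 in neither. A further measure, 4 MHC class II transcripts (H2-Aa, H2-Ab1, H2-Eb1 and Cd74) at 1% of UMIs or more together, was met by 32, 16, 1 and 171 of these cells.

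Transcripts of proliferation were compared within the members. Of the 578 AT2-Tracer members 302 (52.25%) had 3 or more UMIs of the proliferation list and 38 had 10 or more, a limit chosen after seeing the data. The 302 were deeper, with a median of 9695.5 against 6979 UMIs in the others. Of the list, Hmgb2 had UMIs in 335 members, Pcna in 317, Mki67 in 194 and Top2a, the topoisomerase of dividing cells, in 26. The 302 are thus not a count of dividing cells. Against the other 540 the 38 had Top2a at 153 against 2.01 CPM and Birc5 at 143 against 1.21 CPM. Ube2c, a ubiquitin-conjugating enzyme of mitosis, stood at 133 against 0.804 CPM. These transcripts define the choice and are a description. Of 3098 genes, 152 (4.91%) were higher and 36 (1.16%) lower. Apoe stood at 17271 against 41835 CPM, Selenop, a selenium carrier, at 440 against 1464 CPM, Ms4a4a at 82.5 against 287 CPM and Ccl4 at 648 against 2151 CPM.

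Epithelial transcripts moved with this split. Of the 38, 6 (15.8%) had 3 or more Epcam UMIs, against 15 (2.78%) of the others, and 8 of 8 epithelial genes at the limit were higher. ZsGFP stood at 750 against 281 CPM. Their median depth was 17943.5 against 7963.5 UMIs. Scrublet marked 4 of the 38, all with 3 or more Epcam UMIs, and 10 of the other 540. Without members with 3 or more Epcam UMIs, 32 were set against 525. Top2a then stood at 175 against 2.12 CPM, Apoe at 18393 against 43709 CPM and Ccl4 at 611 against 2229 CPM, as before in direction. ZsGFP turned, at 86.8 against 146 CPM, and Epcam stood at 8.675 against 6.999 CPM.

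The reporter that defined the sort was low in the members. ZsGFP, the transcript of the green reporter, stood at 342 CPM in AT2-Tracer members, 283 CPM in the Chil3-high class, 157 CPM in the Cd163 set and 8121 CPM in Epcam-positive barcodes. Without the 21 members with 3 or more Epcam UMIs it stood at 139 CPM. After thinning it was seen in 11.7% of members, 9.86% of the Chil3-high class, 14.8% of the Cd163 set and 97.7% of Epcam-positive barcodes. The red reporter tdT had no UMI in any of the 590 members. Most of them came from the AT2-Tracer library, where Epcam-positive barcodes had tdT at only 1.22 CPM. Epcam-positive barcodes had 1279 CPM in the BASC-Tracer and 662 CPM in the Club-Tracer library. The count of 0 in the few members there allows up to 19.5 and 591 CPM. Sftpc, the gene whose promoter drove the DreER, was seen in 57.5% of thinned members, 52.1% of the Chil3-high class, 69.1% of the Cd163 set and 80.4% of Epcam-positive barcodes. How these macrophages came to be in the green sort was not tested.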

How the data were processed

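The deposited matrices hold UMI counts (whole numbers, not normalized) for 32287 features. The authors used Cell Ranger 6.1.1 and build mm10, per the submitters' processing notes. The release of the annotation is not given in the sources used. Libraries used 5′ chemistry, per the labels' protocols.

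Classes were cut by the UMI limits given above. The members and gene lists were chosen with earlier results of these data known. Counts were summed per class and library and scaled to CPM with exact Poisson intervals. Shares have Clopper-Pearson and ratios exact conditional intervals. The pseudocount was 5 CPM. The text draws on the 15 highest and 15 lowest genes of each AT2-Tracer contrast (50 CPM and 30 UMIs or more in the higher class), and on up to 6 genes per list, 3 at each end. Apoe, the C1q genes, Mmp12, Chil3 and genes used by the rule are always given. Other genes were chosen after their values were seen.

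Doublets were scored with Scrublet. Its automatic threshold marked 102 AT2-Tracer barcodes. In the other libraries it marked under 0.5%, and the highest scores at 0.8% per 1000 barcodes (89 Club-Tracer and 17 BASC-Tracer) were taken instead. Marked cells were kept here and removed as an alternative. Scripts were tested on simulated data. A few genes are not reported here. Gene coordinates are those of GRCm38. Tools were Python 3.11.15, scanpy 1.11.5, numpy 2.4.6, scipy 1.17.1, pandas 2.3.3 and matplotlib 3.10.9.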

Additional observations from a re-analysis of the deposited data

How the results depend on the processing

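The count of AT2-Tracer members ran from 542 to 611 over the alternatives tried. Club-Tracer members went from 2 to 1 with at least 1000 genes per barcode or without barcodes with 3 or more Epcam UMIs. The alternatives without Epcam-bearing barcodes, those for the proliferating members included, the larger proliferation limit and the split on Mmp12 were chosen after seeing the data.

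Against the Chil3-high class, the genes higher in members numbered 425 with a gene limit of 20 CPM and 160 with 100 CPM, and those lower 152 with 100 CPM. Against the Cd163 set, the higher genes numbered 68 with a pseudocount of 20, 163 with a limit of 20 CPM and 66 with 100 CPM, and the lower 115 with 100 CPM. Scaling by the median ratio gave 289 higher and 220 lower against the Chil3-high class and 119 and 152 against the Cd163 set. Of 1500 values of named genes against the Chil3-high class 292 moved beyond counting error and 0 reversed, and of 1224 against the Cd163 set 167 moved and 0 reversed.

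Thinning to 3000 in place of 1500 UMIs gave C1qc in 96.7% of members, Mmp12 in 24.7%, Spp1 in 59.1%, Chil3 in 36.2% and H2-Aa in 57.6%. Members with proliferation transcripts went from 302 at 3 UMIs to 38 at 10. ZsGFP in members stood at 321 CPM with a C1q limit of 0.2%, 148 CPM without Scrublet doublets and 139 CPM without Epcam-bearing barcodes. Apoe in barcodes with 5 or more Epcam UMIs stood at 58.6 CPM.

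No paired analysis was possible because each sort has 1 library and no replicate numbers. The contrasts within the BASC-Tracer library and between libraries were not run, since they held 10, 8 or 2 cells, under the minimum of 20. Depth limits low transcripts: a count of 0 in a class allows up to 3 UMIs.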

Other observations

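Interferon response genes were few at this depth. Against the Chil3-high class, 3 of 4 at the limit were higher in C1q-high members and none lower, with a median log2 ratio of 1.75, and those 3 reached the limit only in members. Isg15 stood at 105 against 14.9 CPM, Ifitm3 at 77.6 against 10.9 CPM. Against the Cd163 set none of 5 was higher and 3 were lower, with a median of -1.74. Ifitm3 stood at 77.6 against 548 CPM there, whereas Isg15 was level at 105 against 103 CPM.

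Receptors for the uptake of lipids and dead cells were split. Of 19 against the Chil3-high class, 6 were higher and 6 lower, with a median of -0.47. Cd36, a lipid scavenger receptor, stood at 119 against 33.9 CPM, while Axl, a receptor tyrosine kinase for apoptotic cells, stood at 153 against 368 CPM and Olr1, the receptor for oxidized LDL, at 82.1 against 363 CPM. Mertk, related to Axl, was not apart at 115 against 188 CPM. Against the Cd163 set Olr1 stood at 82.1 against 25.9 CPM and Stab1 at 146 against 506 CPM.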
